A study of Mus musculus with 6 samples.

Results

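Gtf3c1 and 9 other genes that encode or control the transcription factors of RNA polymerase III were followed in single mouse oocytes. The members were Gtf3c1 to Gtf3c6, Brf1, Brf2, Bdp1 and Maf1, taken by gene symbol from the count table. All 10 were found among the 25239 genes of the table. Gtf3c1 entered because its counts were low in phthalate oocytes against water oocytes, so its ratio, and the ratios of the other members in the same comparison, are descriptions and not independent evidence.

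Oocytes came from female CD-1 mice, an outbred strain, aged 4 to 6 weeks. Cumulus-oocyte complexes, each an oocyte with its follicle cells, received an injection of water (3 libraries) or of a mixture of phthalate metabolites (3 libraries). Both groups were then cultured in the same maturation medium with 10% serum and 200 mIU/mL FSH, and oocytes still at the germinal vesicle (GV) stage, before meiosis resumes, were collected. The labels state neither the dose nor the members of the mixture. Each library is 1 oocyte by its title, but no animal or culture is named, so a group is treated as 1 sample, and the spread between animals, which a test would need, is unknown.

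RNA polymerase III makes short untranslated RNAs, among them transfer RNA, the small ribosomal RNA known as 5S and the spliceosomal RNA U6. At tRNA genes the factor TFIIIC, built of 6 subunits, first recognises promoter boxes inside the gene and then places TFIIIB upstream of it, and TFIIIB recruits the polymerase. TFIIIB contains TBP, Bdp1 and a TFIIB-like subunit, which is Brf1 at tRNA genes and Brf2 at U6-type genes, and Maf1 represses the polymerase when nutrients are short. A fully grown GV oocyte has largely stopped transcribing, so its messenger RNA is mostly a store laid down during growth.

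Total gene counts were 252267 to 300917 per library, and 4644 genes passed a filter on low counts. It asked for a count of about 10 in at least 3 of the 6 libraries, whichever group they came from. Oocyte identity was checked on 10 markers, including Gdf9, Zp3 and Nobox, which took 1.79% to 2.2% of the counts of a library. Of 20 cumulus and granulosa cell markers, 10 had 0 counts everywhere, among them the defining markers Amh and Foxl2. The other 10 had some counts, mostly of Nr5a2, and all 20 together took 0.00364% to 0.016% of the counts of a library. Gene counts per count of ERCC spike-in RNA were 358 to 907 in water-injected oocytes and 569 to 942 in phthalate-injected oocytes. Low counts were mostly even (69.9% of the values from 1 to 20), a pattern that arises when both mates of a read pair are counted; the labels do not say whether they were.

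Reverse transcription started from the poly(A) tail, so each measured molecule began at the 3′ end of its messenger RNA. The last 30 bases of the principal transcript are shown for the 4 members with enough counts to compare, with the polyadenylation signal AATAAA or its variant ATTAAA in capitals, from GENCODE M21 (GRCm38, the assembly also called mm10). The windows lie at chr7:125640954-125640983 for Gtf3c1, chr5:31156005-31156034 for Gtf3c2, chr10:40247703-40247732 for Gtf3c6 and chr8:27123364-27123393 for Brf2, all on the minus strand.
Gtf3c1: tattttgtaATTAAAgtgagatgaaatgta
Gtf3c2: tgaactAATAAAgaagtgccttccattgca
Gtf3c6: tctttgaagtAATAAAagtatattgcatga
Brf2: agaggcatctgctggaaaacattctattgt
Gtf3c1 ends on the variant signal, which 13.0% of 21736 transcripts, 1 per gene, carry in this window on the sense strand. Gtf3c2 and Gtf3c6 end on the common signal, which 51.0% carry. The annotated end of Brf2 holds neither, as do 37.6% of transcripts. TTTTAT or TTTTAAT, the letters of cytoplasmic polyadenylation elements, stood in the last 100 bases of Gtf3c3, Gtf3c4 and Bdp1 (TTTTAT) and of Brf2 (TTTTAAT), and in 16.5% of all transcripts. In Gtf3c3, Gtf3c4 and Bdp1 the match lies downstream of the polyadenylation signal. Gtf3c1, Gtf3c2 and Gtf3c6 have no such match there.

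Gtf3c1 encodes the largest subunit of TFIIIC, which contacts the promoter box farther inside the tRNA gene. The gene spans 125640954 to 125707780 on the minus strand of chromosome 7, and no other annotated gene overlaps it. Its counts were 39, 38 and 23 in water-injected oocytes 1, 2 and 3, against 19, 11 and 8 in phthalate-injected oocytes 1, 2 and 3. As CPM (the count over the library total, times 1000000) the values were 145, 126 and 81.0 against 75.3, 37.3 and 29.1. All 3 phthalate oocytes lay below all 3 water oocytes, but the highest phthalate value was close to the lowest water value. Summed over libraries, Gtf3c1 took 117 CPM in the water-injected group (95% exact Poisson interval 95.3 to 142) and 46.2 CPM in the phthalate-injected group (32.7 to 63.4).

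The log2 ratio of phthalate over water for Gtf3c1 was -1.32, with a 95% counting interval of -1.90 to -0.77, which is a level 2.5-fold lower. With counts halved to read pairs the interval widened to -2.17 to -0.54. The interval covers counting error only and leaves out the spread between oocytes. Copies made by PCR and paired mates are not separate molecules, so where they were counted it is too narrow even for counting error. Leaving out 1 library at a time gave -1.78 as the lowest ratio (phthalate oocyte 1 omitted) and -1.13 as the highest (phthalate oocyte 3 omitted). For scale, 8.14% of the 4644 genes were at least 1.5-fold lower in the phthalate-injected group, and 6.96% at least 1.5-fold higher. Among genes with a mean count of 15 to 35 per library, near that of Gtf3c1 (23.0), the share at least 1.5-fold lower was 8.88%. The phthalate libraries lay wholly below the water libraries for 5.49% of genes and wholly above them for 4.52%. Gtf3c1 was chosen for this comparison, so nothing is read from its place in these shares.

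Counts of follicle cell markers varied within both groups in the same libraries. The 20 markers summed to 43, 25 and 15 counts in water-injected oocytes and to 22, 24 and 10 in phthalate-injected oocytes. Nr5a2, a nuclear receptor, supplied 64 of the 83 water counts and 39 of the 56 phthalate counts. The groups overlapped, and within each group the marker sum, like Gtf3c1, was lowest in oocyte 3. In the water-injected group that order came from Nr5a2, since the other markers summed to 11, 2 and 6 there and to 6, 9 and 2 in the phthalate-injected group. Their part in the Gtf3c1 values was not tested.

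**Figure D1:**
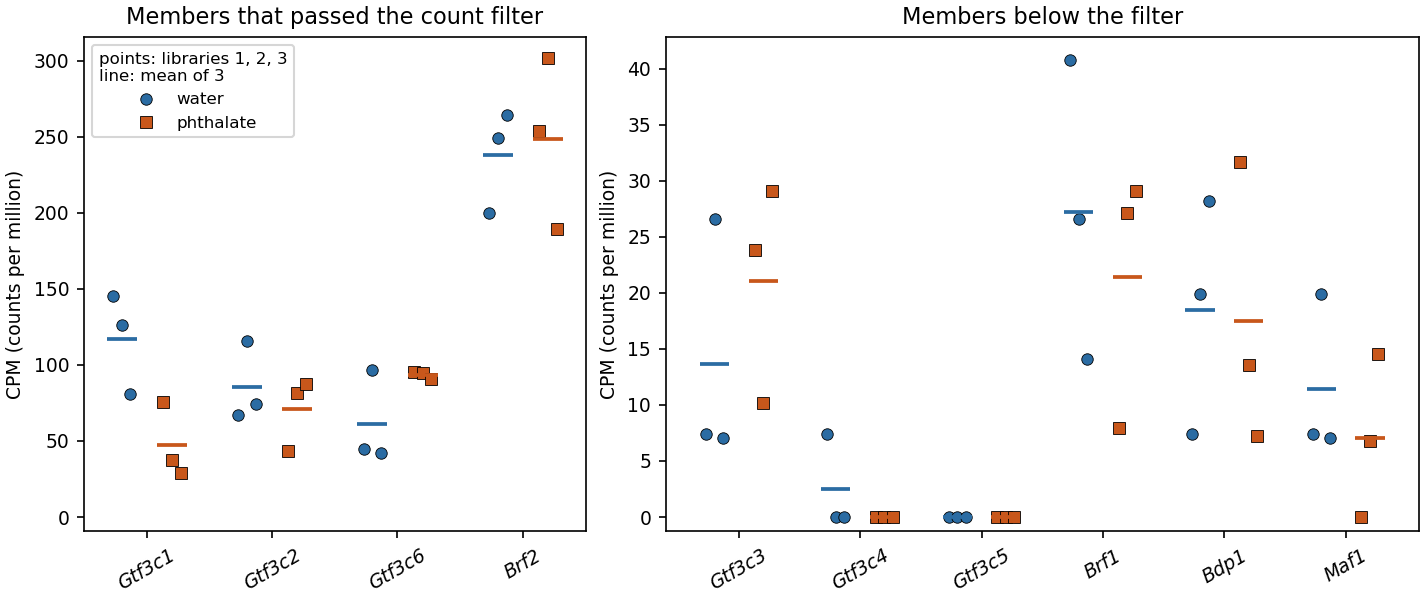
CPM of each member in the 3 water (circles) and 3 phthalate (squares) libraries, plotted left to right as libraries 1 to 3, with the mean of the 3 as a line. Members that passed the count filter are in the left panel and the others in the right panel, on separate linear axes. Gtf3c1 is the 1 member whose phthalate values (29.1 to 75.3) all lie below its water values (81.0 to 145).

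Gtf3c2 and Gtf3c6, the other TFIIIC subunits that passed the filter, overlapped between the groups. Gtf3c2, which encodes a subunit of the module that binds the same box, had 66.8, 116 and 74.0 CPM in water-injected oocytes and 43.6, 81.3 and 87.3 in phthalate-injected oocytes. These ranges overlapped, and the log2 ratio was -0.26 (-0.77 to 0.26) from 74 and 59 counts, and 0.06 without water oocyte 2. Another protein-coding gene model, Gm29609, covers most of Gtf3c2 on the same strand in GENCODE, and the count table has no row of that name. Gtf3c6, which encodes the smallest subunit, had 44.5, 96.4 and 42.3 CPM in water-injected oocytes and 95.1, 94.9 and 90.9 in phthalate-injected oocytes. The phthalate values lay close together, and water oocyte 2 lay above all of them.

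The log2 ratio of Gtf3c6 was 0.61 (0.09 to 1.14), from 53 counts in the water-injected group and 77 in the phthalate-injected group. It lay just past 1.5-fold, and fell below it without water oocyte 1, without water oocyte 3 or without phthalate oocyte 3, the lowest value being 0.40. Without water oocyte 2 it was 1.14. On read pairs the interval of Gtf3c6 ran from -0.14 to 1.37 and included equal levels.

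Gtf3c3, which encodes the subunit that contacts TFIIIB, had 2, 8 and 2 counts in water-injected oocytes and 6, 3 and 8 in phthalate-injected oocytes. Its log2 ratio of 0.57 had an interval of -0.58 to 1.77, and was 1.55 without water oocyte 2, which held 8 of the 12 water counts. At this depth neither direction was detectable. Gtf3c4, a subunit with reported histone acetyltransferase activity, had 2 counts, both in water oocyte 1. Gtf3c5, which encodes the subunit that contacts the promoter box nearer the start of the tRNA gene, had 0 counts in all 6 libraries. A count of 0 allows up to 3 counts in a group, or 3.51 CPM in the water-injected group and 3.65 CPM in the phthalate-injected group.

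Because a share within 1 library does not depend on how libraries are scaled, the make-up of the TFIIIC counts was compared directly. Gtf3c1 supplied 53.4%, 34.5% and 39.7% of the TFIIIC subunit counts in water-injected oocytes and 31.7%, 16.7% and 12.3% in phthalate-injected oocytes. The share is built from the counts for which Gtf3c1 was chosen, so it describes the same difference and adds no support. In the sums Gtf3c1 made up 41.5% of 241 counts in the water-injected group (95% exact binomial interval 35.2 to 48.0) and 19.9% of 191 counts in the phthalate-injected group (14.5 to 26.3).

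The share of Gtf3c6 was 16.4%, 26.4% and 20.7% in water-injected oocytes and 40.0%, 42.4% and 38.5% in phthalate-injected oocytes. A share of Gtf3c6 moves up when Gtf3c1 is lower, so it was also taken without Gtf3c1. It was then 35.3%, 40.3% and 34.3% in water-injected oocytes against 58.5%, 50.9% and 43.9% in phthalate-injected oocytes. The single values did not overlap, but the intervals of the summed shares did, at 37.6% (29.6 to 46.1) in the water-injected group and 50.3% (42.1 to 58.5) in the phthalate-injected group. The share of Gtf3c2 was 52.5% and 38.6%, and as these shares add up, a lower one of Gtf3c2 raises that of Gtf3c6. The counts of the subunits other than Gtf3c1 summed to 141 in the water-injected group and 153 in the phthalate-injected group.

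**Figure D2:**
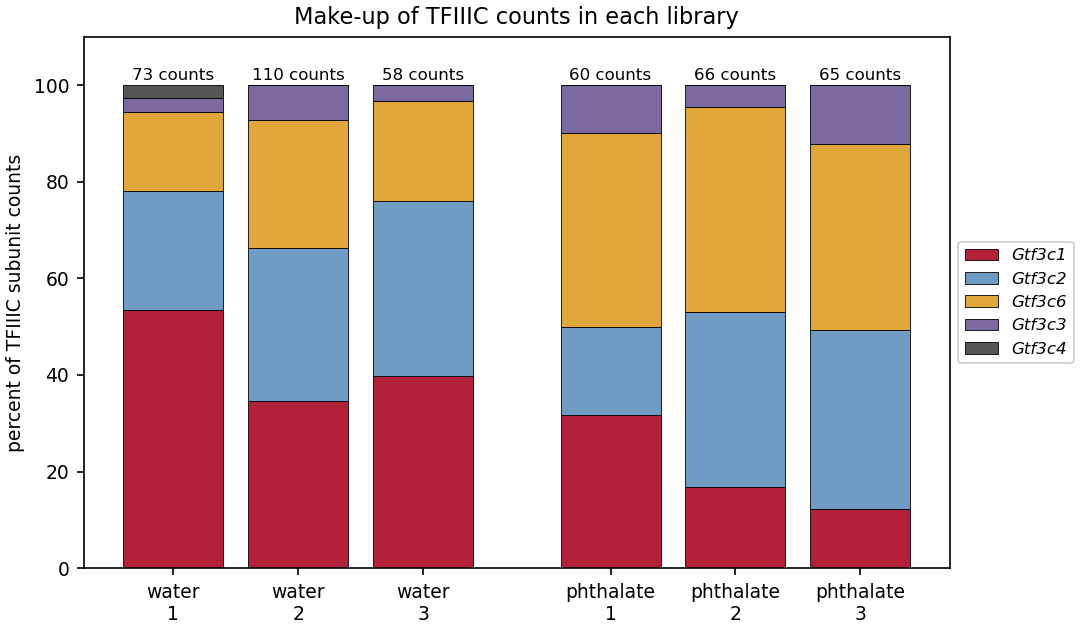
Make-up of the counts of TFIIIC subunits in each library as stacked percentages, with the number of TFIIIC counts above each bar; Gtf3c5 had no count. The Gtf3c1 part, at the bottom, takes 34.5% to 53.4% in the water libraries and 12.3% to 31.7% in the phthalate libraries.

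The product of Brf2 is the TFIIB-like subunit of the TFIIIB form used at U6-type genes. Brf2 had 200, 249 and 264 CPM in water-injected oocytes and 254, 302 and 189 in phthalate-injected oocytes. The groups overlapped widely, and phthalate oocyte 3 held the lowest value of all. The log2 ratio was 0.08 (-0.21 to 0.37), from 204 and 205 counts, an interval that leaves out a 1.5-fold difference in either direction as far as counting error goes. It was -0.04 without water oocyte 1 and -0.08 without phthalate oocyte 2. The annotated Brf2 gene shares 73 bases with Adgra2 on the opposite strand, and Adgra2 had 4 counts in the whole table.

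Brf1, the TFIIB-like subunit for tRNA and 5S genes, had 11, 8 and 4 counts in water-injected oocytes and 2, 8 and 8 in phthalate-injected oocytes. Its log2 ratio was -0.28 (-1.26 to 0.67), and 0.09 without water oocyte 1 or without phthalate oocyte 1. Btbd6, which lies within Brf1 on the opposite strand, had 0 counts.

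Bdp1, the subunit common to both TFIIIB forms, had 2, 6 and 8 counts in water-injected oocytes and 8, 4 and 2 in phthalate-injected oocytes, with a log2 ratio of -0.12 (-1.27 to 1.01). The ratio of Bdp1 was -0.80 without phthalate oocyte 1, and above 0 without water oocyte 3 (0.30), phthalate oocyte 2 (0.06) or phthalate oocyte 3 (0.20). Maf1 had 2, 6 and 2 counts against 0, 2 and 4, with a log2 ratio of -0.66 (-2.41 to 0.94), which was -1.71 without phthalate oocyte 3 and 0.04 without water oocyte 2. Both genes overlapped between groups, and their depth could not show a 2-fold difference.

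Of the 10 members 4 passed the count filter, namely Gtf3c1, Gtf3c2, Gtf3c6 and Brf2. In that set 1 gene was at least 1.5-fold lower (Gtf3c1), 1 at least 1.5-fold higher (Gtf3c6) and 2 lay between, beside 8.14% lower and 6.96% higher over all genes that passed. Nothing is read from this count, since Gtf3c1 was chosen for its low ratio. Their median log2 ratio was -0.09, beside 0.01 for the 4644 genes.

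Levels of different genes were put in order per length, as counts per kilobase of the longest coding transcript, scaled to a library total of 1000000. On this scale Brf2 stood first, with a mean over the 6 libraries of 128 (range 99.6 to 159). The range of Brf2 did not overlap that of Gtf3c6, next in order with 30.6 (16.7 to 38.2). Then came Gtf3c2 with 17.2 (9.58 to 25.6), Gtf3c1 with 11.8 (4.18 to 20.8) and Brf1 with 9.28 (3.03 to 15.6). Lower levels per length were those of Maf1 with 5.33, Gtf3c3 with 3.79, Bdp1 with 1.82 and Gtf3c4 with 0.174. These means pool both groups, and the order was not the same in each. In the phthalate-injected group Brf1 (8.18) lay above Gtf3c1 (6.79) and Gtf3c3 (4.59) above Maf1 (4.08), while in the water-injected group Brf1 (10.4) lay below Gtf3c1 (16.9) and Gtf3c3 (2.99) below Maf1 (6.58). From Gtf3c6 down, each gene's range overlapped that of the next, so the order of neighbours was not resolved with this length. With the median length of the coding transcripts in place of the longest, the ranges of Brf2 and Gtf3c6 overlapped, and those of Gtf3c2 (57.6 to 154) and Gtf3c1 (4.43 to 22.0) did not. The mean level of Gtf3c1 per length was 16.9 in the water-injected group, beside 18.8 for Gtf3c2, and 6.79 in the phthalate-injected group, where Gtf3c2 had 15.5. With the median length the levels in the water-injected group were 17.9 for Gtf3c1 and 113 for Gtf3c2, so how these genes compare depends on the length used.

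**Figure D3:**
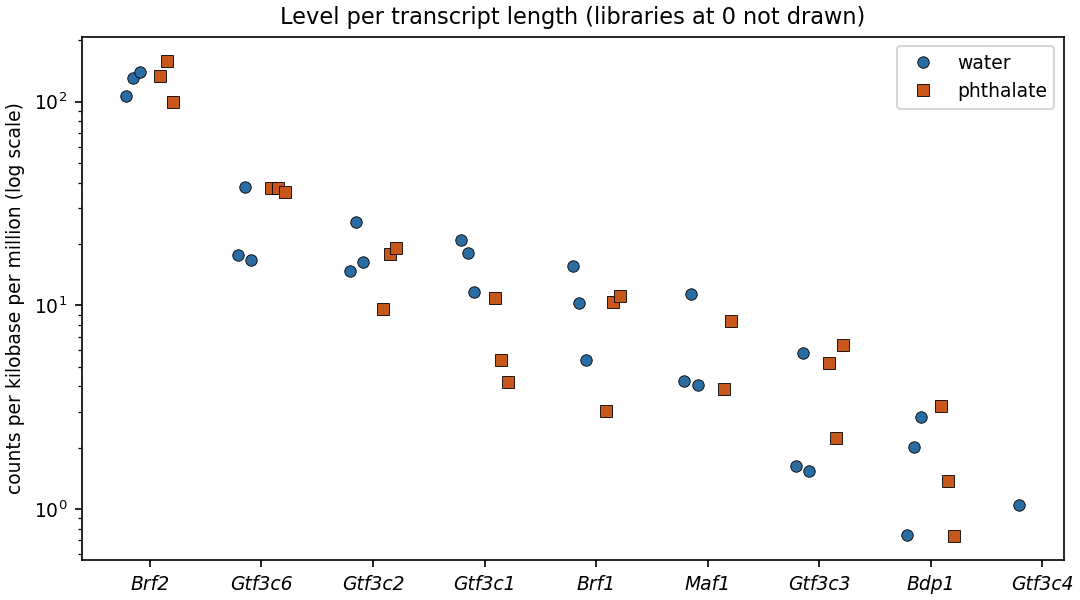
Level of each counted member per kilobase of its longest coding transcript, scaled to a library total of 1000000, on a log axis, in the water (circles) and phthalate (squares) libraries. Brf2 (99.6 to 159) stands apart from the rest with this length, and the ranges of the genes that follow overlap from 1 to the next; a library with no count is not drawn.

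Other genes of the pathway were taken from 6 lists that together held 49 genes besides the members. Of these, 22 passed the filter, 2 were at least 1.5-fold lower, 1 was at least 1.5-fold higher and 19 lay between, with a median log2 ratio of 0.07. Over all genes that passed the shares were 8.14% lower and 6.96% higher, and so few pathway genes cannot be told from them.

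Tbp, the TATA-binding subunit of TFIIIB, which also serves the other nuclear RNA polymerases, had 152, 96.4 and 102 CPM in water-injected oocytes. In the phthalate oocytes Tbp had 59.5, 71.2 and 43.6 CPM. The groups did not overlap, and the log2 ratio was -0.97 (-1.50 to -0.46), from 99 and 48 counts. Leaving out 1 library gave -1.14 to -0.77 for Tbp, and its read-pair interval was -1.75 to -0.26. In GENCODE the Tbp gene shares 8094 bases with Pdcd2 on the opposite strand, and the use of strand in counting is not stated, so counts given to Tbp may not all be its own. Pdcd2 itself had 29 counts in water-injected and 23 in phthalate-injected oocytes. Trnt1, the enzyme that adds CCA to tRNA ends, had 44.5, 76.4 and 49.3 CPM in water-injected oocytes and 15.9, 44.1 and 36.4 in phthalate-injected oocytes. The nearest values of Trnt1, 44.5 and 44.1, almost met. Its log2 ratio of -0.79 (-1.52 to -0.08) shrank to -0.47 without phthalate oocyte 1, and its read-pair interval of -1.82 to 0.23 included equal levels.

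Pou2f1, which encodes the octamer-binding activator of U6-type promoters, went the opposite way. It had 33.4, 56.5 and 81.0 CPM in water-injected oocytes and 95.1, 98.3 and 102 in phthalate-injected oocytes. The phthalate values were close together and all above the water values, which spread widely. The log2 ratio of Pou2f1 was 0.80 (0.27 to 1.34), with a read-pair interval of 0.03 to 1.57, and was 0.53 without water oocyte 1.

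Subunits of the polymerase itself were mostly below the filter. Polr3a, the largest and a catalytic subunit, had 286, 216 and 127 CPM against 230, 197 and 215, and a log2 ratio of 0.05 (-0.26 to 0.36). Polr3k, a small subunit that acts in termination, had a log2 ratio of 0.16 (-0.35 to 0.67). These were the 2 of 11 polymerase III subunits that passed the filter. With no filter, 8 of 39 pathway genes with a ratio were at least 1.5-fold lower and 5 higher, beside 19.1% lower and 17.0% higher of 10319 genes. Some of those below the filter were picked out after their values were seen. Polr3b, the other catalytic subunit, had 11, 8 and 13 counts against 8, 4 and 0, and a log2 ratio of -1.34 (-2.43 to -0.35) with a read-pair interval of -2.98 to 0.09. Snapc5, a subunit of the complex at U6-type promoters, had a log2 ratio of -1.01 (-1.94 to -0.14) with a read-pair interval of -2.27 to 0.30. In the other direction, Polr3d, a polymerase III subunit, had a log2 ratio of 0.87 (-0.11 to 1.89) with a read-pair interval of -0.61 to 2.25. Snapc3, of the same complex as Snapc5, had 0.92 (-0.27 to 2.20, read pairs -0.81 to 2.85), and Polr2h, a shared polymerase subunit, had 1.24 (-0.60 to 3.39, read pairs -1.22 to 4.79). The counting intervals of Polr3b and Snapc5 left out equal levels, and the read-pair intervals of all 5 genes included them. All 5 shared polymerase subunits that passed, of 7 in the list, lay between -0.23 and 0.12. Of 4 listed proteins that bind polymerase III transcripts 3 passed, and Ssb (the La protein), Larp7 and Mepce had log2 ratios of -0.16, 0.34 and 0.38. Hexim1, also in that list, had 0 counts in all 6 libraries. In the tRNA maturation list 8 of 18 genes passed, and all but Trnt1 lay within 1.5-fold.

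**Figure D4:**
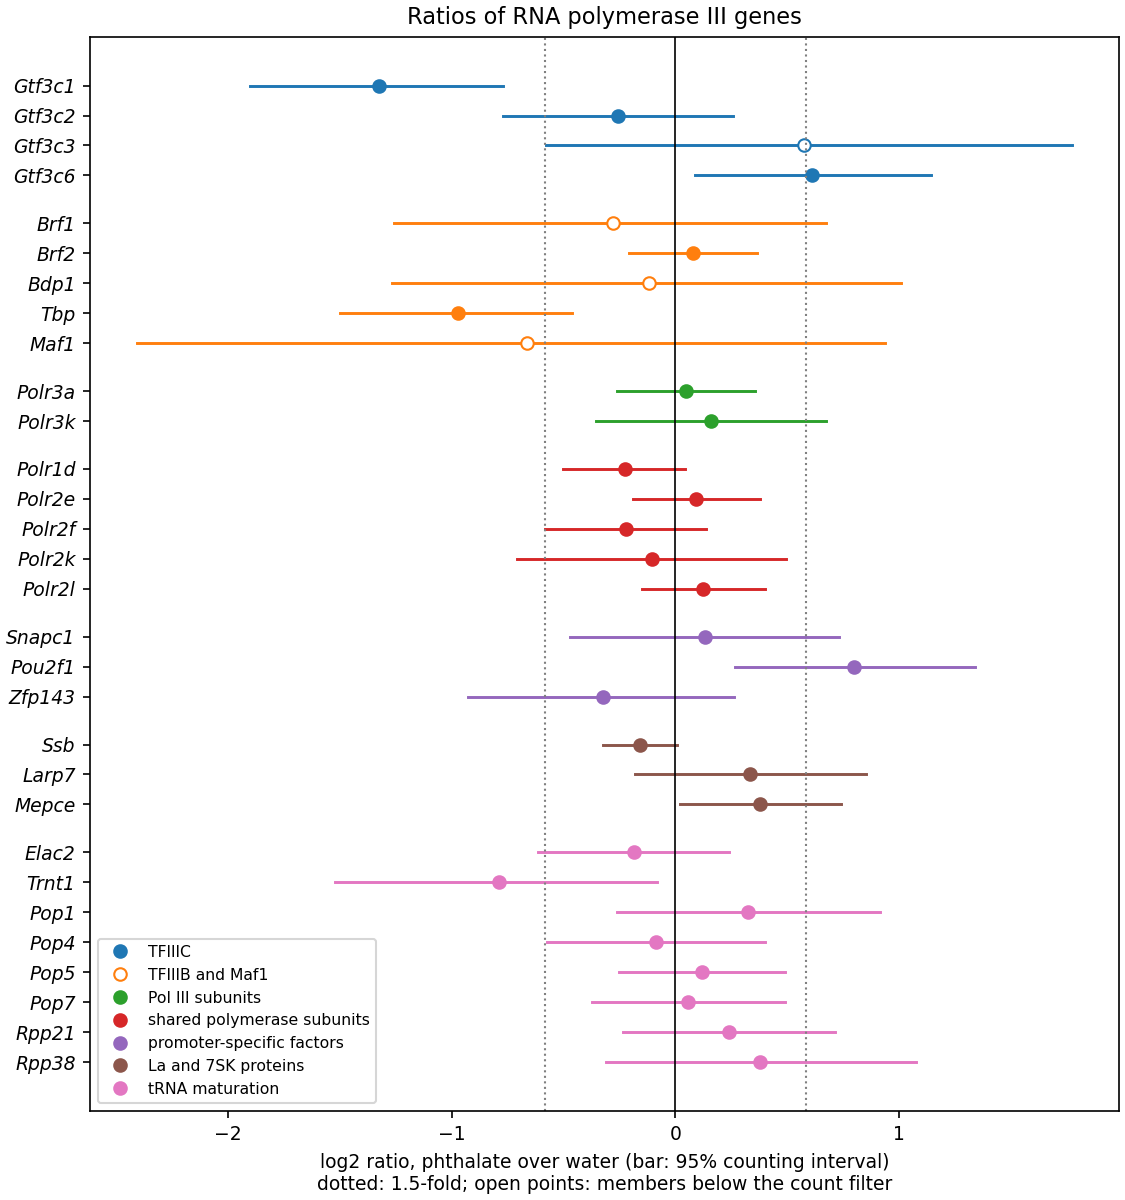
Log2 ratio of phthalate over water for members and for other polymerase III genes that passed the count filter, grouped by list, with 95% counting intervals as bars and dotted lines at 1.5-fold. Gtf3c1, Tbp and Trnt1 lie left of the dotted line and Pou2f1 and Gtf3c6 right of it; open points are members below the filter, of which Maf1 also lies to the left with an interval that spans 0.

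**Figure D5:**
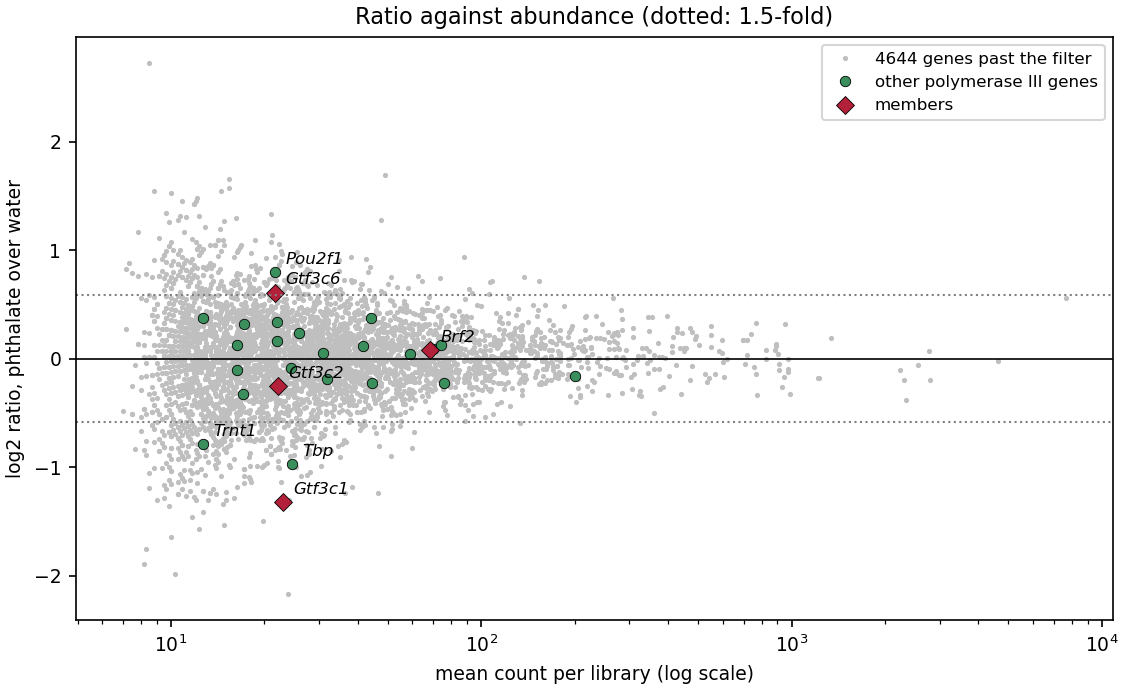
Log2 ratio of phthalate over water against mean count per library (log axis) for the 4644 genes past the filter (grey), members (diamonds) and other polymerase III genes (circles). The spread of grey points narrows with abundance; Gtf3c1 (mean count 23.0, ratio -1.32), which was chosen for its ratio, lies below the lower dotted line, and Brf2 (68.2, 0.08) near 0.

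Genes whose CPM followed that of Gtf3c1 most closely over the 6 libraries were named by Pearson's correlation of log2(CPM + 1). Of 2783 genes that averaged at least 20 counts, the highest correlations were those of Rcan3 (0.98), Syf2 (0.96), Zdhhc18 (0.96), Phf1 (0.95) and E330011O21Rik (0.95). Rcan3 had 152, 133 and 127 CPM in water-injected oocytes and 119, 81.3 and 76.4 in phthalate-injected oocytes, a narrower range than Gtf3c1. In all, 20 of the 2783 genes had a correlation of at least 0.9. With 6 points such values can arise without any link, and the share to be met by chance was not worked out. The points also hold the group difference for which Gtf3c1 was chosen, so genes lower in phthalate oocytes rank high. They share libraries and depth as well, so these values are descriptions. Tbp came 64th with 0.84, whereas Gtf3c2 (-0.05), Brf2 (-0.05) and Gtf3c6 (-0.47) did not follow Gtf3c1.

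RNAs made by polymerase III had few counts, and the method captures poly(A) tails, which such RNAs mostly lack. Of 13 such RNAs looked for by symbol, 8 had a row in the table and 3 had any count. Vaultrc5 had 2 counts, in water oocyte 2, and Rpph1 and Rprl3 had 1 count each, in phthalate oocyte 2. These counts say nothing about how much tRNA or other polymerase III RNA the oocytes held.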

How the data were processed

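Raw counts for each gene symbol, as whole numbers, were deposited by the authors from Smart-seq3 libraries sequenced as read pairs of 150 bases, per the labels' protocols. The submitters' processing notes name mm10, cutadapt, Trimmomatic, HISAT2 and DESeq2, without roles. The counting tool, annotation, use of strand and handling of molecular identifiers are not given in the sources used here. Counts of 92 ERCC RNAs were left out of totals and ratios. Genes were filtered with filterByExpr (edgeR 4.0.16, minimum count 10, minimum total 15). Counts were summed over the 3 libraries of a group, divided by totals scaled by TMM factors, and given as a log2 ratio with a Clopper-Pearson interval. No pseudocount was added, but a group sum of 0 was set to 3 counts, so that such ratios are bounds; no gene past the filter had such a sum over all libraries of a group. CPM used unscaled totals. No ratio was given where both sums were at most 3 counts. Because each group is 1 sample, no test was run. Within groups, libraries varied more than counting error alone would give (chi-square per degree of freedom 1.17 to 2.32 on read pairs), which PCR copies can also give, and all 6 were kept as labelled. Members and lists were chosen with earlier results of these data known. The rule for named genes took the members, Tbp, pathway genes past 1.5-fold, and the 5 genes most correlated with Gtf3c1. Other genes given with values lie outside this rule and were chosen after their values were seen. Lengths and positions came from GENCODE M21. Alternatives were library totals or DESeq2 1.42.0 size factors, no filter, 2-fold, Rn45s left out, mean CPM, read pairs, transcript length and each library left out.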

Additional observations from a re-analysis of the deposited data

How the results depend on the processing

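No paired analysis was possible because the labels name no animals that could pair the libraries and no result rests on a test. The log2 ratio of Gtf3c1 lay between -1.34 and -1.31 under other scalings, without Rn45s and with mean CPM, and between -1.78 and -1.13 with 1 library left out. Its share of TFIIIC counts ranged from 36.3% to 47.3% (water) and from 14.5% to 23.8% (phthalate) with 1 library left out. The share of Gtf3c6, examined after seeing the data, was 37.6% and 50.3% without Gtf3c1 in the total, against 22.0% and 40.3% with it, since the total is then smaller. With no filter, 2 of 8 members with a ratio were at least 1.5-fold lower and 2 higher, and pathway genes numbered 8 and 5 of 39. All genes then numbered 1967 and 1759 of 10319 (19.1% and 17.0%), since genes of few counts enter. The TMM factors also change without the filter, which put Gtf3c3, at 0.57 in the main ratios, past 1.5-fold. At 2-fold, 0 members were higher, and all genes numbered 76 and 53, against 378 and 323 at 1.5-fold. With 1 library left out, members past 1.5-fold higher numbered 0 to 1 and lower 1 to 1, and pathway genes 1 to 2 lower and 1 to 2 higher. Over all genes the same runs gave 393 to 489 lower and 353 to 437 higher. Members wholly higher in the phthalate libraries numbered 0 to 1, but the share over all genes was not taken for these runs, so nothing is read from it. The median of the pathway genes then ranged from -0.085 to 0.193 and that of the members from -0.23 to 0.09, so neither sign was stable. The ratio of Maf1 ranged from -1.71 to 0.044, the latter without water oocyte 2. Median transcript length raised the levels of Brf2, Gtf3c6 and Gtf3c2 to 205, 147 and 103, in the same order, and the ranges of Brf2 and Gtf3c6 then overlapped while those of Gtf3c2 and Gtf3c1 did not. Where not given above, the cause was not tested. Low depth limits what can be said of the 6 members below the filter.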

Other observations

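Oocytes also carry relatives of Tbp, looked at after the values of Tbp were seen. Tbpl2, the TBP relative that takes the place of TBP in transcription during oocyte growth, had 6, 12 and 12 counts in water-injected oocytes and 6, 8 and 3 in phthalate-injected oocytes. Its log2 ratio was -0.75 (95% counting interval -1.70 to 0.16), and the groups overlapped. Tbpl1 had 6 counts in the water-injected group and 2 in the phthalate-injected group, too few to compare.

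Rn45s, the ribosomal RNA precursor made by RNA polymerase I, took 2.02%, 2.32% and 2.35% of the counts in water-injected oocytes and 3.54%, 2.89% and 3.38% in phthalate-injected oocytes. Leaving it out of the table did not move the ratio of Gtf3c1, which stayed at -1.32. Of the polymerase I subunits that polymerase III shares, Polr1d had a log2 ratio of -0.23 (-0.50 to 0.05) and Polr1c had 6 counts in each group.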
